A study of Mus musculus with 7 samples.

Results

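Apolipoproteins are the protein component of lipoproteins, and 10 of their genes are described here: Apoa1, Apoa2, Apoa4, Apoa5, Apob, Apoc1, Apoc2, Apoc3, Apoe and Apom. They were chosen by name, with earlier results of these data known. Their probes were found through the RefSeq accession that the array design gives each probe. With 11 probes, 9 of the 10 genes were found among 32451 genes on the array, and no probe was matched to Apoc2. The samples were livers of male C57/BJ mice aged 26 weeks, which had been put at 6 weeks of age on a high-fat diet (HFD, 3 samples) or on control chow (4 samples) and kept on it for 20 weeks. The labels name no mutation or drug in either group, and each array carried 1 sample. The labels do not say whether each sample was a separate animal, so p-values measure only the spread between these samples.

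Lipoproteins carry fat and cholesterol through blood, and liver and small intestine make most apolipoproteins. Apob is the structural protein of very-low-density lipoprotein and chylomicrons, Apoa1 and Apoa2 are the main proteins of high-density lipoprotein, and Apoe binds receptors that clear remnants. The C apolipoproteins and Apoa5 set how fast lipoprotein lipase empties triglyceride from the particles, Apoa4 travels with chylomicrons and high-density lipoprotein, and Apom carries sphingosine 1-phosphate. Reference gene order places Apoa1, Apoc3, Apoa4 and Apoa5 next to each other on chromosome 9, and Apoc1 next to Apoe on chromosome 7.

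Of the 9 genes, 2 have deposited values for both diets: Apoa4 was higher in HFD, with a value that did not pass the test, and Apom was lower and passed. The other 7 can be described only on the HFD arrays. The reason is that the deposited data have 2 layers that disagree for chow. One is a scanner file for each array, with all 39429 probes, and the other is a table of processed log2 values that lists 1615 probes. Across probes, the Pearson r between a scanner file and the column of the same sample was at least 0.9999 for HFD, whereas it lay between 0.580 and 0.589 for the 4 files labelled chow. Diets were therefore compared in the table alone. At all of its 1615 probes the 4 chow values and the 3 HFD values did not overlap. The table had thus been selected on the comparison itself, and its p-values are not independent evidence. A gene outside the table has no chow value that can be used, which is not a finding of no change.

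The apolipoprotein probes show the disagreement directly. On the 3 HFD arrays all 9 genes were well above background, as were 12 of 12 hepatocyte markers. In the scanner files labelled chow, Apoa1, Apoa4 and Apoa5 were not well above background on any of 4 arrays, and neither were the hepatocyte markers Alb, Ahsg and Cps1. Against that, 6 of the 9 genes and 7 of the 12 hepatocyte markers were well above background on all 4. Levels in this paragraph are log2 signals minus the 75th percentile of their array, compared only within a probe. Apoa1 had 6.86, 7.18 and 7.14 in HFD replicates 1 to 3 and -8.03, -8.32, -8.34 and -8.35 in the files labelled chow. Apoe, which many tissues make, was well above background in all 7 files, with a mean of 9.43 ± 0.30 (SD, n = 3) for HFD against 3.26 ± 0.09 (SD, n = 4) for the chow label. For Apom the scanner files gave 4.71 ± 0.03 (SD, n = 3) for HFD against -2.91 ± 0.10 (SD, n = 4) for the chow label, the opposite direction to the table. Of 5 kidney markers, 4 were well above background on all 4 files labelled chow, and 4 were so on no HFD array. The tissue behind the files labelled chow was not tested. No diet effect is read from the scanner files below. The headers put the HFD scans and the scans labelled chow on separate days. For the chow columns of the table no scan day is known, so scan day and diet cannot be told apart.

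**Figure D1:**
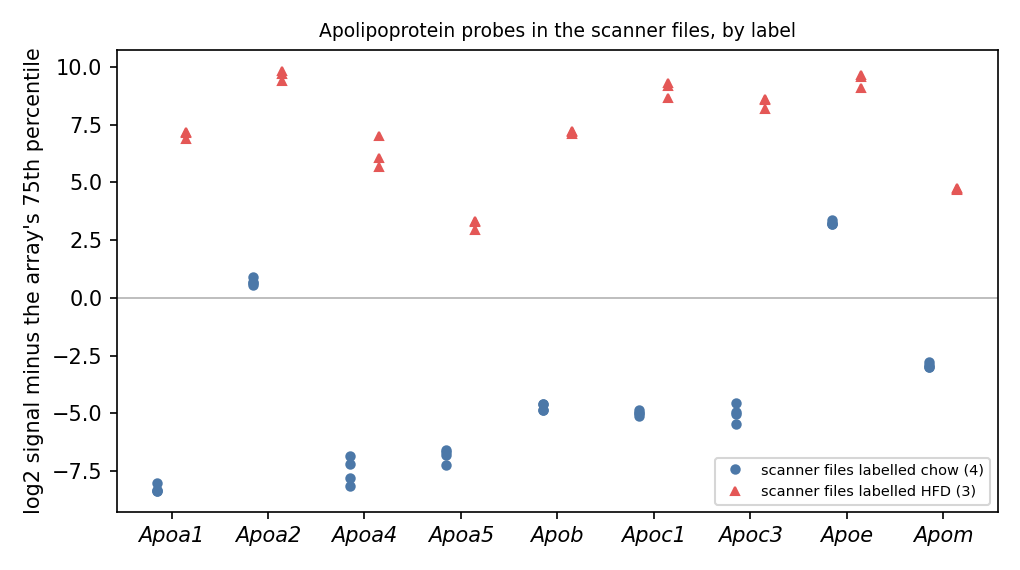
Log2 signal minus the 75th percentile of its array for the probe that stands for each of 9 apolipoprotein genes, in the 4 scanner files labelled chow (circles) and the 3 labelled HFD (triangles). For each of the 9 genes the files labelled HFD lie above those labelled chow, from 3.26 against 9.43 for Apoe to -8.26 against 7.06 for Apoa1, which compares the files and not the diets.

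The first question is which apolipoprotein genes differed with diet. The table holds 2 of the 9 genes, against 4.59% of all genes on the array and 7.4% of those genes that 2 or more HFD arrays read well above background. With limma's moderated test and Benjamini-Hochberg adjustment over all 32451 genes, 0 of the 9 passed as higher, where 1.05% of genes on the array did, and 1 passed as lower, where 0.832% did (1.89% in either direction). Of the genes in the table, 23% passed as higher, 18.1% as lower and 41.1% in either direction. At an unadjusted p under 0.05 the counts were 1 higher and 1 lower, which only restates that these genes are in the table, since all of its 1488 genes (4.59% of the array) meet that threshold. Genes outside the table count as not called in these shares. In bulk liver, fewer cells of a type and less RNA per cell cannot be told apart, and this holds for every difference below. Among all genes 342 passed as higher and 270 as lower, a split that became 186 and 605 with each column centred on its median, and 291 and 531 after quantile normalization.

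Apoa4 encodes apolipoprotein A-IV, which liver and intestine secrete. In the table its log2 values were 14.34, 14.09, 13.96 and 13.85 in chow replicates 1 to 4 and 17.11, 15.39 and 15.79 in HFD replicates 1 to 3. The diets did not overlap, as at every probe of the table, and HFD replicate 1 stood well above the other HFD samples. Chow averaged 14.06 ± 0.21 (SD, n = 4), and HFD averaged 16.10 ± 0.90 (SD, n = 3). The difference was 4.10-fold, or 2.04 on the log2 scale (SE 0.39, 95% interval 1.12 to 2.95). It did not pass (adjusted p = 0.0530 in limma), and by size it was 80th among the 801 genes of the table that were higher in HFD. Without HFD replicate 1, which then also left the variance prior, the difference was 2.89-fold. This smaller difference passed with an adjusted p of 0.0495 in limma. With the variance prior taken from the table itself it also passed (adjusted p = 0.0365 in limma). With adjustment over the table's genes alone, all 1488 genes of the table pass, so Apoa4's adjusted p there (0.00243 in limma) carries no information about it. In the other 10 of 13 alternative fits it did not pass.

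Apom encodes apolipoprotein M, a lipocalin held on high-density lipoprotein that is made mainly in liver and kidney. Its log2 values were 15.63, 15.70, 15.55 and 15.77 in chow replicates 1 to 4 and 14.59, 14.41 and 14.45 in HFD replicates 1 to 3. The samples of each diet lay close together. Every HFD value was below every chow value, and such a lack of overlap holds at every probe of the table. Apom fell 2.26-fold, from a chow mean of 15.66 ± 0.09 (SD, n = 4) to an HFD mean of 14.48 ± 0.09 (SD, n = 3). The log2 fold change was -1.18 with an SE of 0.10 and a 95% interval of -1.41 to -0.95 (adjusted p = 0.0180 in limma). By size it was 157th among the 687 genes that were lower. The fold stayed between 2.21 and 2.35 when any 1 sample was left out, but the call was lost in 4 of 7 such fits: without chow replicate 1 (adjusted p = 0.0571), without chow replicate 3 (0.0616), without chow replicate 4 (0.0626) and without HFD replicate 2 (0.102), all in limma. In those 4 fits at most 4 genes of the whole table passed as higher and at most 7 as lower.

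**Figure D2:**
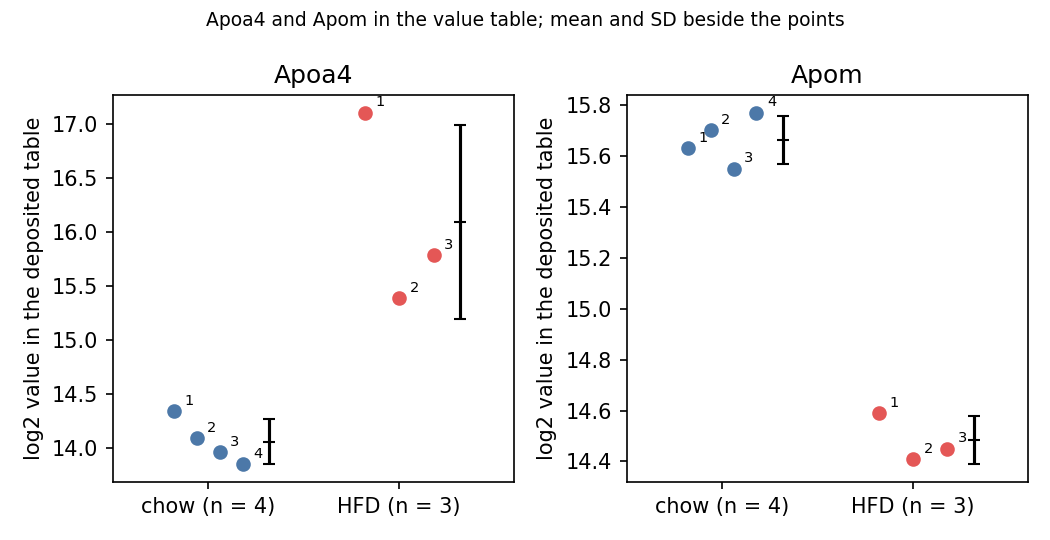
Log2 values of Apoa4 and Apom in the deposited table for 4 chow and 3 HFD samples, each point 1 sample with its replicate number, and mean with SD beside the points. Apoa4 spans 15.39 to 17.11 in HFD and 13.85 to 14.34 in chow, while Apom spans 14.41 to 14.59 in HFD and 15.55 to 15.77 in chow.

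The table's columns differ in their medians, which were higher in HFD by 0.21 on the log2 scale. Centring each column on its median moved Apoa4 to 1.82 and Apom to -1.39, with the same calls. Neither gene changed direction in any of 13 alternative fits of the table. Since the diets do not overlap at any probe of the table, leaving out a sample could not have changed a direction. The fits that changed the prior, the genes adjusted over or the averaging of probes left both differences as they were.

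**Figure D3:**
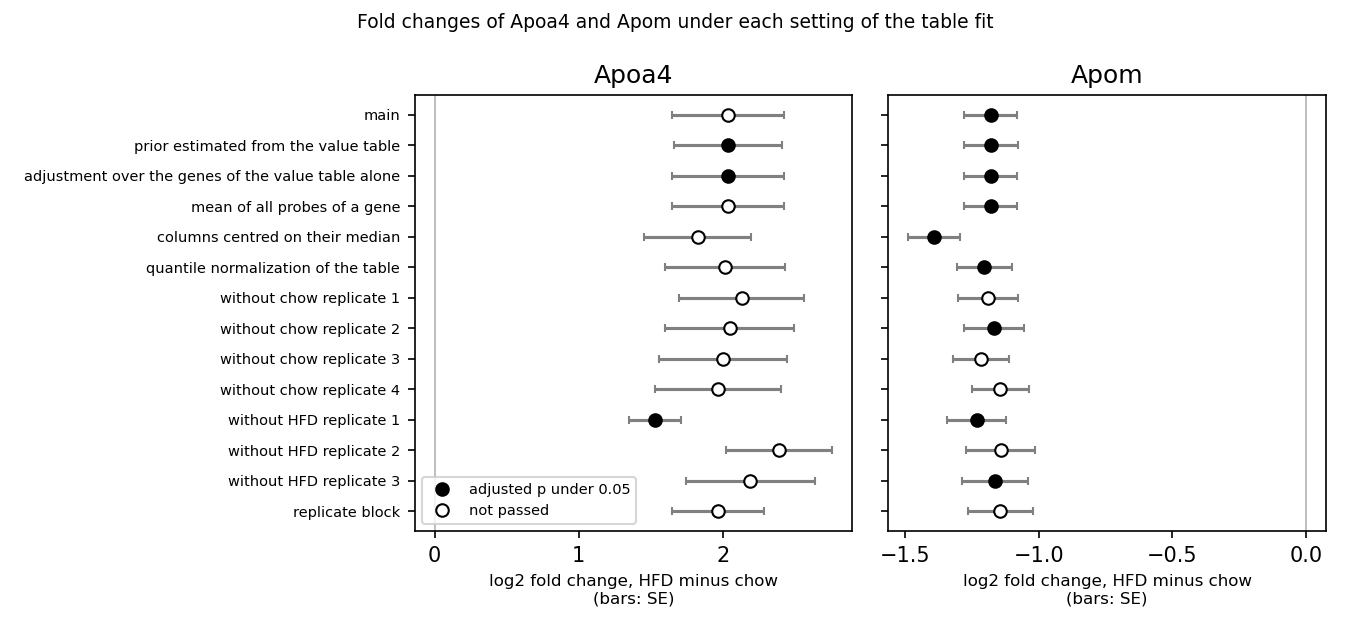
Log2 fold change, HFD minus chow, of Apoa4 and Apom in the main fit and 13 alternative fits of the table, with SE as bars and filled points where the adjusted p was under 0.05. Apoa4 runs from 1.53 without HFD replicate 1 to 2.39 without HFD replicate 2, and Apom from -1.39 to -1.14.

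Promoter sequence is given for these 2 genes because they alone have a diet comparison. The stretches are the 250 bases before the annotated start site in RefSeq, build GRCm38.p6. Capitals mark CAAAGTTCA in Apoa4, a form of the element that the liver factor HNF4A binds, and GGGTCA in Apom, a nuclear receptor half-site.
Apoa4, chr9:46240594-46240843, plus strand: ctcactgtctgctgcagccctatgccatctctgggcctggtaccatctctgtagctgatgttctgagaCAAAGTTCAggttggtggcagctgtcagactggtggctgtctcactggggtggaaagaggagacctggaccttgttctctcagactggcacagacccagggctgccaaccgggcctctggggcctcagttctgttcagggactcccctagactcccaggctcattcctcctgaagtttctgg
Apom, chr17:35131802-35132051, minus strand: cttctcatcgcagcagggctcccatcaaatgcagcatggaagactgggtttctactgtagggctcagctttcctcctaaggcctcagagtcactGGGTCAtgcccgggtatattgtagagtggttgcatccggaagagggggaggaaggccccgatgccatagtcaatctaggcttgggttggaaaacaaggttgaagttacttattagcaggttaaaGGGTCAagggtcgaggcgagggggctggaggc
On both strands, CAAAGTTCA or its reverse complement occurs in 0.335% of 32851 promoter windows of this length, and among the windows of 8 of the 10 genes that had an entry it was found in Apoa4 alone. It begins 182 bases before the Apoa4 start site. GGGTCA occurs in 11.6% of windows, and it begins 156 and 32 bases before the Apom start site. It was also found in windows of Apoe and Apoa5. The related CAAAGTCCA (0.384% of windows) was in none of the windows of these genes, and AGGTCA (14.0% of windows) was in those of Apoa2 and Apoc2. A TATAAA was in windows of Apoa2, Apoa5, Apob and Apoe, and in 12.4% of all windows. These motifs do not overlap each other in the sequences shown, GGGTCA was chosen after the Apom sequence was seen, and a match is a description of letters.

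The genes of the table whose values followed Apoa4 most closely over the 7 columns were Arhgap15 (Pearson r = 0.991), P2ry14 (r = 0.985) and Tnfaip3 (r = 0.982). Those most like Apom were 5730420D15Rik (r = 0.993), Tspan4 (r = 0.993) and Slco2a1 (r = 0.988). In HFD replicates 1 to 3, 5730420D15Rik had 3.179, 2.959 and 3.025. The lowest table values read well above background on those arrays were 4.927, 4.163 and 3.724, so its HFD values lay near background. The 7 columns share their split by diet at every gene of the table, so high values of r are common there. For Arhgap15 the HFD values were 6.92, 6.29 and 6.24 in replicates 1 to 3, with replicate 1 again above the rest.

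The other 7 genes have levels on the HFD arrays, here as log2 signal minus the 75th percentile of the array. Apoa1 and Apoa2 make up most of the protein of high-density lipoprotein. Apoa1 had 6.86, 7.18 and 7.14 in HFD replicates 1 to 3. Apoa2 had 9.37, 9.82 and 9.68 by its brighter probe and 8.54, 9.12 and 9.08 by its second. Both Apoa2 probes were lowest in replicate 1. Apoa1 is spotted 10 times per array, and its spots within an array had an SD of 0.05 to 0.14, against 0.17 between the 3 arrays.

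Among genes of triglyceride-rich particles, Apob had 7.08, 7.20 and 7.19 by its brighter probe, with an SD of 0.07 that became 0.11 after quantile normalization. Its second probe had 5.31, 5.31 and 5.63, so the probes did not order the arrays alike. Apoa5, which supports lipoprotein lipase, had 2.95, 3.35 and 3.29. Replicate 1 was the lowest for Apoa5 and for the brighter Apob probe. Apoc1, which slows particle uptake, had 8.64, 9.29 and 9.16, with an SD of 0.34 that became 0.04 after quantile normalization. Apoc3, an inhibitor of lipoprotein lipase, had 8.17, 8.57 and 8.61. Apoe had 9.09, 9.65 and 9.55, and its 10 spots per array had an SD of 0.17 to 0.18. For all of Apoc1, Apoc3 and Apoe, replicate 1 lay below the other arrays.

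HFD replicate 1 was thus the lowest array for 7 of 9 genes, and the highest for 1, Apoa4. This order followed the scaling. It held under median scaling and under normexp background correction, also 7 of 9, but after quantile normalization replicate 1 was the lowest for 2 genes and the highest for 6. Replicate 1 also had a mean negative control signal of 46.9, against 29.9 and 30.8 on the other HFD arrays, and fewer spots well above background (57.0% against 62.3% and 66.8%). The part of these values in the order was not tested.

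**Figure D4:**
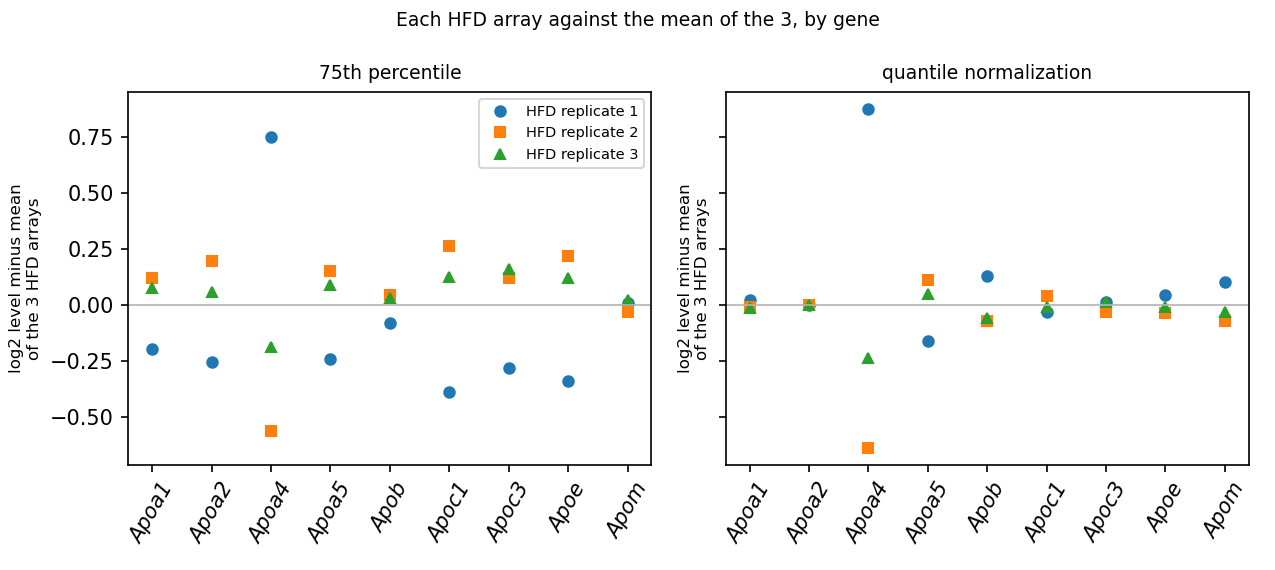
Log2 level of 9 apolipoprotein genes on each of 3 HFD arrays minus the mean of the 3, after scaling to the 75th percentile (left) and after quantile normalization (right). Apoa4 has an SD of 0.68 and 0.78 in these panels, and the order of the arrays for the other genes changes between them.

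Apoa4 varied most of the 9 among the HFD samples. Its SD between the 3 arrays was 0.68, larger than that of 96.1% of 17606 genes that were well above background on all 3 HFD arrays, and larger than that of 98.3% of the 806 of them within 1 log2 unit of its level. Apoa4 kept the largest SD of the 9 under each scaling, from 0.67 to 0.78, with replicate 1 the highest each time. Apom was at the other end, with an SD of 0.03 that exceeded that of 2.62% of genes. For Apom the size depended on scaling, and its SD was 0.09 after quantile normalization and in the table. The median SD over all 17606 genes was 0.17. These percentages describe 3 arrays.

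Some of these probes were at the top of the scanner range, where a higher level could not have been read. The file headers give a saturation value for each array. The Apoa2 spot reached 86.4% of it in HFD replicate 1, 99.5% in replicate 2 and the whole of it in replicate 3. The brightest Apoe spot reached 86.6% in replicate 1 and the whole in replicates 2 and 3. Of the 10 Apoe spots, 0, 3 and 8 were at 99% or more. No spot carried a saturation flag. On these arrays only 2 probes in replicate 2 and 4 probes in replicate 3 were that bright, and none of them is in the value table. Apoc1 lay between 59.7% and 73.5% and Apoc3 between 42.2% and 46.8%. Apoa4 (6.62% to 21.6%) and Apom (3.38% to 4.56%), like Apoa1, Apoa5 and Apob, were far below the ceiling, at most 22.2%. The share of probes in the table varied with brightness. The table lists 4.10% of all 39429 probes. It lists 15.0% of the 618 probes whose HFD mean was at least 6 log2 units above the 75th percentile. Of the 96 that were at least 8 above, the range that holds Apoa2, Apoc1, Apoc3 and Apoe, it lists 4 (4.17%). The part of the ceiling in these shares was not tested.

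**Figure D5:**
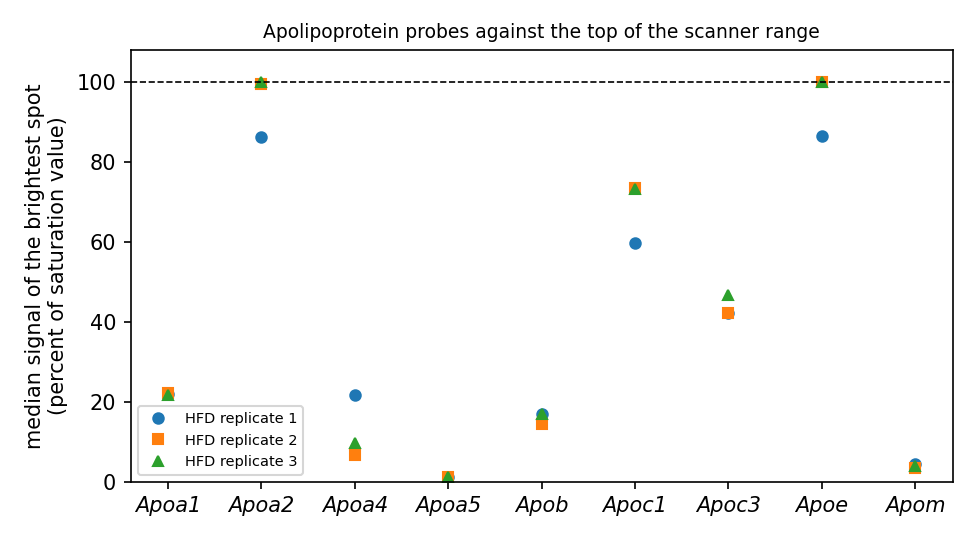
Median signal of the brightest spot of each gene's probe on the 3 HFD arrays, as percent of the saturation value in the file header, with a dashed line at that value. Apoa2 and Apoe reach the line in replicate 3, Apoc1 reaches 73.5%, and Apoa5 and Apom stay under 5%.

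The next question is whether genes that work with apolipoproteins differed with diet. Of 111 such genes on the array, 21 were in the table. That share was 4.59% over all genes on the array. It was 7.4% over genes that 2 or more HFD arrays read well above background. Of the 111, 5 passed as higher and 6 as lower, against 1.05% and 0.832% of all genes. Only a gene of the table can pass, and of all its genes 23% passed as higher and 18.1% as lower. These shares also apply to each list below. Among the 21, the numbers higher and lower were 11 and 10, and the median log2 fold change was 0.36, beside 0.44 for all 1488 genes of the table. With columns centred on their median, 10 passed as lower. Each of the 11 passing genes kept its call in at most 3 of the 7 fits that left out 1 sample. The counts of 5 and 6 mostly fell when 1 sample was left out, to 0 and 0 in the fits without chow replicates 1, 3 or 4 and without HFD replicate 2, to 3 and 0 without chow replicate 2, and to 2 and 0 without HFD replicate 1, while they were 6 and 3 without HFD replicate 3.

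In the list of the wider apolipoprotein family, 5 of 20 genes were in the table and 3 passed, all lower. That list also counts Apobec1, which is not itself an apolipoprotein. Saa1 and Saa2, acute phase apolipoproteins of high-density lipoprotein, fell 5.55-fold and 3.83-fold, though Saa2 lost its call after quantile normalization of the table (log2 difference -1.69, adjusted p = 0.0611 in limma), and as near-identical copies they may share signal. Apon, a little-studied family member, fell 1.94-fold, from 14.49, 14.33, 14.43 and 14.65 in chow to 13.33, 13.37 and 13.85 in HFD. Apoc4 and Apobec1 are named here after their values were seen. Apoc4, which lies between Apoc2 and Apoc1 on chromosome 7, had 16.16, 16.17, 16.06 and 16.14 in chow and 16.49, 16.56 and 16.42 in HFD, so its HFD values were 0.36 higher on the log2 scale without passing (adjusted p = 0.0950 in limma). Apobec1, the enzyme that edits Apob messenger RNA, had a log2 difference of 0.68 (adjusted p = 0.0584 in limma). With columns centred on their median, the log2 difference was 0.15 for Apoc4 and 0.47 for Apobec1.

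Assembly and secretion genes were in the table for 4 of 23, and none passed (0 of 23 in limma; the 4 have an unadjusted p under 0.05, as has every gene of the table). The nearest was Mia2, needed for export of large cargo from the endoplasmic reticulum, with a log2 difference of 0.48 (adjusted p = 0.0565 in limma). With columns centred on their median, the difference of Mia2 was 0.27. Mttp, which loads fat onto Apob, was not in the table.

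Receptor genes were in the table for 5 of 17. Vldlr and Cd36 passed as higher, and Sdc1, a heparan sulphate proteoglycan that takes up remnants, fell 1.78-fold, from 12.66, 12.58, 12.80 and 13.02 to 11.90, 11.81 and 12.08. Lipases and remodelling genes were listed for 2 of 21. Pltp, which transfers phospholipid between lipoproteins, rose 2.27-fold, with values of 9.88, 10.30, 10.41 and 9.89 in chow and 11.28, 11.54 and 11.09 in HFD (log2 fold change 1.18, SE 0.18). Lcat, the plasma enzyme that Apoa1 activates, is also named with its value known, and its difference of -0.65 on the log2 scale gave an adjusted p of 0.0615 in limma.

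Of 30 transcription factor genes that act on apolipoprotein genes, 5 were in the table, with 2 passing as higher (Srebf1 and Pparg) and 2 as lower. Foxa3, a forkhead factor of liver, fell 1.82-fold, from 10.65, 11.00, 10.68 and 10.72 to 9.70, 9.98 and 10.01. Nr5a2, the liver receptor homologue LRH-1, fell 1.55-fold, from 7.37 ± 0.12 (SD, n = 4) to 6.74 ± 0.10 (SD, n = 3). Hnf4a and Creb3l3, which are known to act on Apoa4, were on the array and not in the table.

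Some markers of cell types and of other tissues also differed with diet. Of all genes on the array 4.59% were in the table, and of these 23% passed as higher and 18.1% as lower. Of 12 hepatocyte markers, 3 were in the table, all lower, and 1 passed. This was Serpina1a, 1.43-fold lower, whose log2 difference turned to 0.15 after quantile normalization. The log2 of the summed signals of the 3 was 18.57 to 18.76 in chow and 18.00 to 18.20 in HFD. That sum covers the 3 table genes alone and is mostly Serpina1a, whose direction depends on the scaling. Of 15 macrophage markers, 3 were in the table (Itgam, Ccr2 and Gpnmb) and all passed as higher. All 4 chow values of Gpnmb and 1 of Ccr2 lay below 4.927. That is the lowest table value read well above background on HFD replicate 1. The log2 of the summed signals of the 3 markers was 11.36 to 11.41 in chow and 12.09 to 12.54 in HFD. That sum covers the 3 table genes alone and is mostly Itgam, which rose 1.75-fold, so it is no separate measure of the cell type. Of 7 small intestine markers, 1 was in the table. This was Fabp2, an intestinal fatty acid binding protein, which rose 3.62-fold (adjusted p = 0.0180 in limma), from 14.37, 14.76, 14.51 and 14.12 in chow to 16.35, 16.21 and 16.33 in HFD. Of these 7 markers, Fabp2 alone was well above background on all 3 HFD arrays. Cdh17, Lct and Rbp2 were so on none, and the rest on some but not all. Markers of other tissues passed too. Snap25 of the brain list was higher (log2 difference 0.85, adjusted p = 0.0237 in limma). Tnnt2 of the muscle list was lower (-2.15, adjusted p = 0.0243 in limma), though well above background on 0 HFD arrays. Dcn and Col3a1 (stellate cell), Cd74 (spleen and thymus) and Pf4 (blood) were higher without passing. The part of these cell types and tissues in the values of Apoa4 and Apom was not tested.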

How the data were processed

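Liver RNA (0.5 microgram) was labelled with Cy3 and hybridised to 1-colour Agilent arrays, per the labels' protocols. The deposited scanner files give spot intensity: a background-subtracted processed signal and median signals, from Feature Extraction 10.7.3.1 per the file headers (9.1 per the submitters' processing notes). The authors' deposited table gives log2 values for 1615 probes, and the sources used here do not state its normalization or selection. Groups came from sample titles.

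Of 39429 probes, 27234 were named through RefSeq accessions in the RefSeq gene table (GRCm38.p6), which gave names and gene order only. The brightest probe by mean stood for a gene. Table values were tested with limma 3.58.1 (R 4.3.3), HFD minus chow. The variance prior (0.0353, 2.10 degrees of freedom) came from 19486 genes that 2 or more HFD arrays read well above background. In a fit without an HFD sample, its array also left the prior. Genes not in the table entered with a p of 1, and Benjamini-Hochberg adjustment covered 32451 genes, with a threshold of 0.05. HFD arrays were scaled by their 75th percentile after control and outlier spots were left out. The fit was tested on simulated data. Normexp (offset 50) used the median signal, since the files hold no mean signal of spots. Alternatives covered the prior, the genes adjusted over, probes, scaling, each sample left out, a replicate block and the scanner files. The members and lists were chosen with earlier results of these data known. Named genes were all members and, per list, up to 4 passing genes by fold or else the one with the smallest p, 3 most similar genes per member, and up to 2 table genes of a marker list. The number of arrays limits precision.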

Additional observations from a re-analysis of the deposited data

Results flagged for a closer look

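Of 29 groups of 4 samples examined, 2 had a sample far from the other 3 by Dixon's ratio, the gap to the nearest value over the whole range, and chance gives about 1 in 20. For Serpina1a, a hepatocyte marker, the ratio was 1 among the chow samples of the table, where replicates 1, 3 and 4 all had 18.47 and replicate 2 had 18.38. For Apoa1 the ratio was 0.903 among the scanner files labelled chow, where replicate 1 had -8.03 and the others -8.32 to -8.35, at a level that was not above background.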

How the results depend on the processing

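Members passing as higher in HFD numbered 0, and 1 with the prior estimated from the table or with adjustment over the table alone, 9 in the scanner files, and 0 to 1 when 1 sample was left out. Members passing as lower numbered 1, and 0 in the scanner files and 0 to 1 when 1 sample was left out. Genes of the pathway lists passing as higher numbered 5, and 11 with adjustment over the table alone, 86 in the scanner files and 0 to 6 when 1 sample was left out. Those passing as lower numbered 6, and 10 with adjustment over the table alone, 10 with columns centred on their median, 14 in the scanner files and 0 to 3 when 1 sample was left out. Across all genes 342 higher and 270 lower became 801 and 687 with adjustment over the table alone, which is every gene of the table, and 552 and 474 with the prior of the table. For the scanner files, whose chow labels do not match the table, the log2 difference had the opposite sign for Apom (7.62), Saa1 (8.88), Saa2 (14.59), Apon (11.90), Vldlr (-3.52), Sdc1 (1.28), Foxa3 (8.60), Nr5a2 (9.73), Lcat (9.04) and Serpina1a (9.02). Saa2, Apon, Foxa3, Nr5a2 and Lcat were not well above background in any file labelled chow, so their sizes here are not measured differences. After quantile normalization of the table that of Serpina1a was 0.15. The cause of these changes was not tested. All 9 members measured on the HFD arrays lay above the 75th percentile of the array in every setting run there.

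Replicate numbers 1 to 3 occur in both groups. Deviations of same-numbered samples from their group means correlated at -0.10 to 0.14, and 1 of 3 HFD samples correlated best with its own number. So few values cannot show or exclude a pairing of the samples. With the replicate number as a block, 0 members and 0 genes of the pathway lists passed in either direction, as did 0 of all genes in limma. The block moved Apoa4 to 1.97 (adjusted p = 0.235 in limma) and Apom to -1.14 (adjusted p = 0.221 in limma).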
